A study of Mus musculus with 12 samples.

Results

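Interferon-stimulated genes were followed in regulatory T cells (Treg) sorted from mouse tumours and spleens. The set holds 39 genes, chosen by name as known targets of interferon signalling, and 38 of them had an array probe that passed the filter, out of 15568 features measured in all. One member, Xaf1, was not analysed here. The rule used no measured difference between groups, but the set was drawn up with earlier results of these data known.

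The 4 groups compared held 3 arrays each. MC38 is a mouse colon carcinoma line, grown under the skin of C57BL/6 reporter mice, and tumours were pooled and digested at 2 weeks. VERT-X mice carry an EGFP reporter of IL-10, and their tumour Treg, gated as CD25+CD120b+/low, were split into IL10+ and IL10- fractions. FoxP3-EGFP mice gave total tumour Treg, gated on EGFP, and tumour-free FoxP3-EGFP mice gave spleen Treg gated in the same way. All 4 populations were first gated as CD45+, CD11blow and CD3+CD4+. Thus tumour bearing and tissue changed together between total tumour and spleen Treg, and reporter strain and Treg gate changed together between VERT-X and total tumour Treg; neither pair can be told apart. The labels name 3 experiments per population, and p-values measure the spread between these samples.

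Interferons bind receptors that activate JAK kinases and STAT factors. Type I interferon assembles the ISGF3 complex, which holds STAT2 and IRF9 and binds the interferon-stimulated response element (ISRE), whereas interferon gamma acts through the gamma-activated site (GAS). The target genes encode proteins that block virus entry and replication, sense foreign nucleic acids, conjugate ISG15, attack pathogen vacuoles or amplify the response. Several of them, such as Irf1, the GBP family and Ly6a, respond strongly to interferon gamma in T cells.

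Values are log2 of the array signal minus the 75th percentile of the same array. A difference of 1 is thus a 2-fold difference, and a value of a probe is comparable between arrays but not with another probe. All 38 members were well above background on all 12 arrays. "Called" means an adjusted p under 0.05 in limma, adjusted over all 15568 features. In bulk RNA, fewer cells of a type and less RNA per cell cannot be told apart.

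Some arrays stood apart from their labels. On spleen array 2, 3 of 7 Treg markers, singled out after their values were seen, were low beside the remaining spleen arrays: Ctla4 was -0.89 against 3.12 and 3.29, Ikzf2 was -1.23 against 3.12 and 3.27, and Il2ra was -3.90 against 0.72 and 1.27. The summed levels of the list were 6.95, 6.98 and 6.90 on spleen arrays 1, 2 and 3. Such a sum rests mostly on the brightest markers, so it cannot show a loss of dimmer ones. The arrays numbered 1 of both VERT-X fractions had low T cell markers, with Cd3e at 2.08 and 1.73 against 4.80 to 5.87 on the other VERT-X arrays. Foxp3 was well above background on all 6 VERT-X arrays, from 2.64 to 4.65, and on none of the 6 arrays of FoxP3-EGFP mice, including both groups gated on the FoxP3 reporter. For the main results that rest on these arrays, calls are also given without them. Arrays were spread over 4 slides, of which slide 2 held total tumour array 3 and all spleen arrays, and slide 3 held all IL10- arrays with IL10+ array 2.

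The RefSeq promoter windows of the members show the 2 response elements. A window runs from 250 bases before the start to 50 after it, on GRCm38.p6, and 29 members have one. The ISRE core was searched as GAAA, any 2 bases and GAAA again, and the GAS core as TTCNNNGAA, both on either strand, and matches may overlap. The ISRE core was in the window of 16 of the 29 members (55.2%), against 3.99% of all 27025 genes with a window. The GAS core was in 7 of the 29 (24.1%), against 9.55% of all genes. Among the 8 members with a window that were higher in total tumour than in spleen Treg, 6 held the ISRE core and 3 the GAS core. Among the other 21 members, 10 held the ISRE core (47.6%) and 4 the GAS core. A match of letters is a description and not a bound site.

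The 120 bases before the start are shown for 6 members that were higher in tumour Treg, and for Oas3, an ISRE-bearing member that was not called, with each core in capitals. Overlapping cores run together: Isg15 holds 3 ISRE cores that start 78, 72 and 66 bases before the start, and Gbp3 holds 2, at 45 and 39. Ifitm2, Gbp2 and Oas3 hold 1 each, at 46, 59 and 75. Igtp holds a GAS core at 45 and an ISRE core at 34, and Irf1 holds a GAS core at 90 and no ISRE core in its window.
Isg15: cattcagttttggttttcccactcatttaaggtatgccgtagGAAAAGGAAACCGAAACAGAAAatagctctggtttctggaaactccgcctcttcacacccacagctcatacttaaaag
Ifitm2: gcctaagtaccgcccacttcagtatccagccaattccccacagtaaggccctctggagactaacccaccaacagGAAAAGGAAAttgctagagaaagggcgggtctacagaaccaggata
Gbp2: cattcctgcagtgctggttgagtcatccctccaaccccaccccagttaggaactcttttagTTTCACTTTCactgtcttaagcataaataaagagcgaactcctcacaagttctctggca
Gbp3: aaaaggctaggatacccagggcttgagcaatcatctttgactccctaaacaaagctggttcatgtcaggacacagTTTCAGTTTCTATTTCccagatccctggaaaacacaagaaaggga
Igtp: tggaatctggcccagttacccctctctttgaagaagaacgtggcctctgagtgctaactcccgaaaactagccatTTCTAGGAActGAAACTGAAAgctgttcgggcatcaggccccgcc
Irf1: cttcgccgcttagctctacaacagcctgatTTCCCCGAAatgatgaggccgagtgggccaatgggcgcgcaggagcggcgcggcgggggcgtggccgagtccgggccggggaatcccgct
Oas3: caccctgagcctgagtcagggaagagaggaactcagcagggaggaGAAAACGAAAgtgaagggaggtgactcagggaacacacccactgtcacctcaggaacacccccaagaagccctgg
These stretches lie at chr4:156200819-156200938 (minus strand) for Isg15, chr7:140955962-140956081 (minus) for Ifitm2, chr3:142620543-142620662 (plus) for Gbp2, chr3:142559924-142560043 (plus) for Gbp3, chr11:58199436-58199555 (plus) for Igtp, chr11:53769894-53770013 (plus) for Irf1 and chr5:120777660-120777779 (minus) for Oas3.

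In total tumour Treg, 9 of the 38 members were higher than in spleen Treg and none was lower. They were the membrane proteins Ifitm2, Ifitm3 and Ly6a, the GTPases Gbp2, Gbp3 and Igtp, the transcription factor Irf1, the antiviral effector Oasl2 and the ubiquitin-like modifier Isg15. Ifitm2 was 10.2-fold and Ifitm3 7.20-fold higher, while most of the classical antiviral effectors did not pass the test. Over all features, 42.2% were called, 21.9% as higher and 20.2% as lower, so the members' share of calls was below that of the array as a whole. The members' share called higher was near that of all features. The members' median difference was 0.36, against -0.01 over all features, and 28 of 38 differences were positive. Groups did not overlap for 17 members that were higher and 4 that were lower, against 32.4% and 33.3% of all features (65.7% in either direction). Without spleen array 2, 8 members were higher and none lower, 7 of them among the 9, and 34.9% of all features were called. With normexp background correction 3 of the 9 were called, namely Ifitm2, Ifitm3 and Ly6a (12% of all features). With median scaling 5 of the 9 were called (24.9%), namely these with Gbp3 and Oasl2. With slide as a block 7 were called (21.7% of all features), without Gbp3, Igtp and Irf1 and with Bst2 added, and within slide 2, with 1 total tumour array, the median was 0.46.

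**Figure D1:**
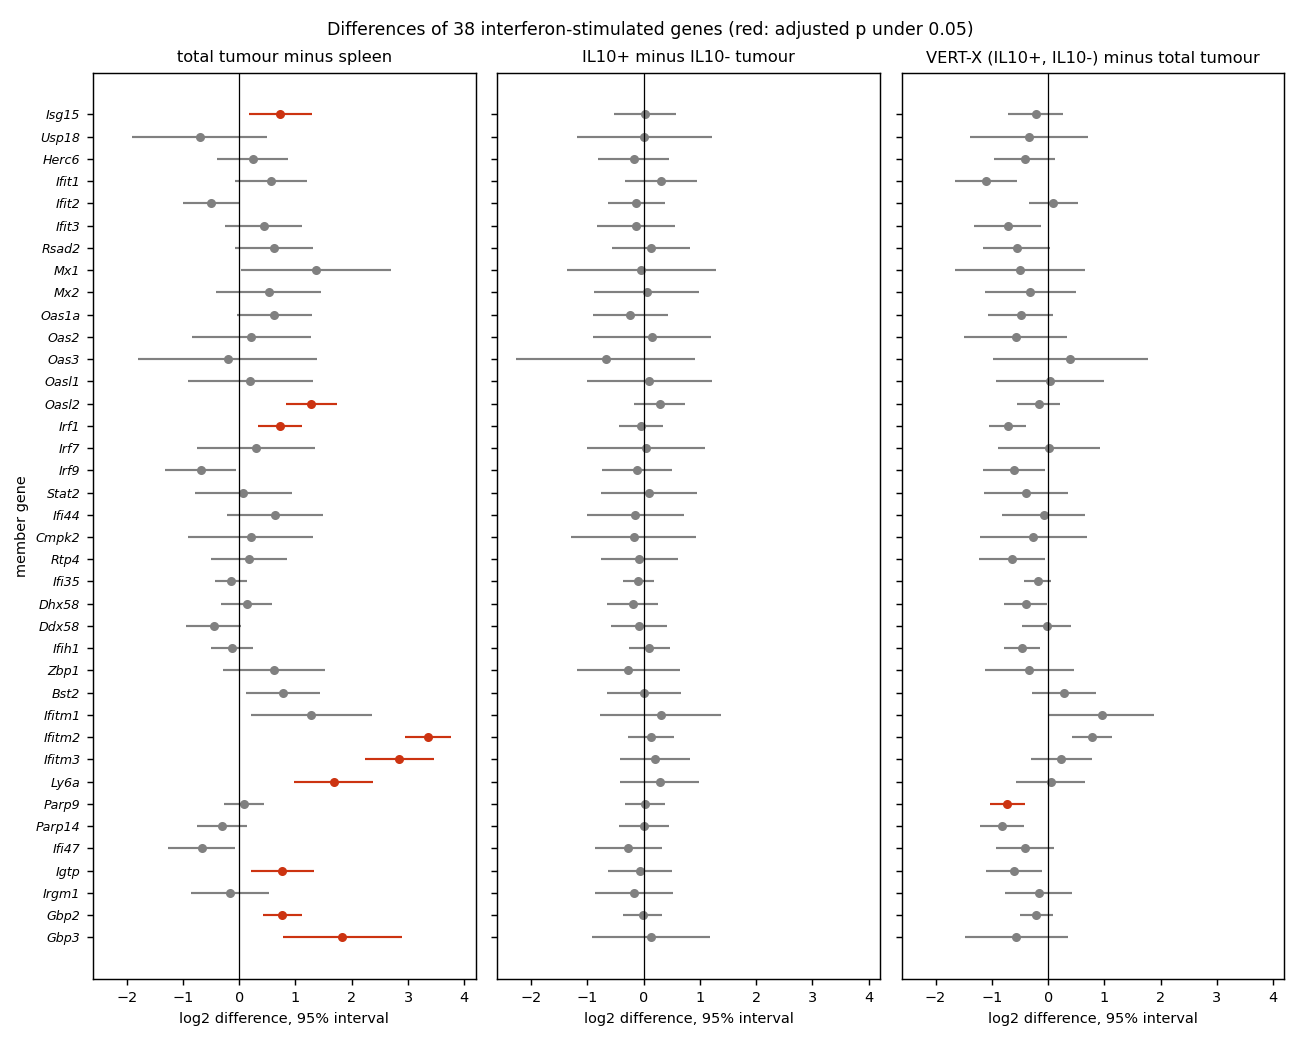
Difference in log2 level for each of the 38 measured members in 3 comparisons, with 95% intervals from limma; red marks an adjusted p under 0.05. In the comparison of total tumour with spleen Treg 9 members are called, from 0.72 to 3.35; none is called between IL10+ and IL10- fractions, and Parp9 alone is called between VERT-X and total tumour Treg.

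Of the 5 members that encode membrane proteins, 3 were called higher in total tumour Treg, and the groups did not overlap for any of the 5. Ifitm2, a restriction factor that blocks virus fusion in endosomes, was at 0.03, -0.41 and -0.63 on the spleen arrays. Its values were 2.86, 3.19 and 3.0 in total tumour Treg, 3.85, 3.55 and 3.80 in IL10- Treg, and 3.90, 3.80 and 3.88 in IL10+ Treg. Every tumour array was thus far above every spleen array. The difference of total tumour from spleen Treg was 3.35 ± 0.18 (SE; adjusted p = 2.13e-06; 3 arrays per group), and its other probe gave 3.1. The brighter probe lies at chr7:140806333-140806392 on mm8.

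Ifitm3, the family member best known for restricting influenza virus, was at 2.79, 2.66 and 1.94 in spleen Treg. It was at 4.99, 5.49 and 5.45 in total tumour Treg, and between 5.12 and 5.87 on the 6 VERT-X arrays. The spleen and tumour arrays did not overlap, and the difference was 2.85 ± 0.28 (SE; n = 3 per group). Its probe lies at chr7:140861012-140861071 on mm8, near that of Ifitm2. Both kept their direction and their call under each of the 24 alternative settings that gave a test, with values from 2.87 to 3.53 for Ifitm2 and from 2.57 to 3.01 for Ifitm3. The Ifitm genes are close paralogues, and cross-hybridisation of their probes was not tested.

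Ly6a (Sca-1), an interferon-inducible surface antigen of activated T cells, rose by 1.68 ± 0.32 (SE), from 6.00 ± 0.10 in spleen to 7.68 ± 0.24 (SD, n = 3) in total tumour Treg. Bst2 (tetherin), which holds budding virions at the cell surface, differed by 0.78 with an adjusted p of 0.0568. Ifitm1, the family member at the plasma membrane, differed by 1.28 with an adjusted p of 0.0561. Its spleen values were spread, at -0.53, 0.29 and -1.88. Without spleen array 2 the difference of Ifitm1 was 1.78 and passed the test.

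Of the 11 antiviral effectors, each read by its brightest probe, Oasl2 alone passed the test. Oasl2, a member of the oligoadenylate synthetase-like family, was at 0.14, 0.57 and 0.18 in spleen and at 1.23, 1.78 and 1.74 in total tumour Treg. The lowest tumour array was above the highest spleen array, and the difference was 1.28 ± 0.20 (SE; adjusted p = 0.000777). Mx1, a gene of the dynamin-like GTPase family, was at -1.06, -1.52 and -0.73 in spleen and at 0.08, 0.14 and 0.56 in total tumour Treg. These groups did not overlap either, but the difference of 1.36 had an SE of 0.59 and an adjusted p of 0.0916. That SE includes the VERT-X arrays, on which Mx1 ran from -1.47 to 0.63. Without the VERT-X arrays numbered 1, Mx1 passed the test at the same difference.

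The other 9 antiviral effectors lay between -0.49 and 0.63 without passing. Groups did not overlap for Mx2 (0.52), for the translation inhibitor Ifit1 (0.56), for Rsad2 (viperin, 0.62) and for Oas1a (0.63), all higher in tumour, or for Ifit2, which was lower (-0.49). Ifit3 (0.43), Oas2 (0.22), Oas3 (-0.21) and Oasl1 (0.20) overlapped between the groups. The call of Rsad2 depends on the probe: its other 2 probes gave 1.23 and 0.89 in a fit of single probes, with adjusted p of 0.0184 and 0.0452. Both also passed against spleen in each VERT-X fraction, where the brightest probe gave 0.13 in IL10+ and 0.002 in IL10- Treg. Probes of a gene did not always share a direction: the 2 fitted probes of Ifit2 gave -0.49 and 0.70, and those of Oas3 gave -0.21 and 1.08. Of 15 members with several fitted probes, 5 had probes of opposite sign, namely Ddx58, Herc6, Ifit2, Oas3 and Parp14. None of these 5 was called in this comparison.

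Interferon-inducible GTPases, which assemble on pathogen vacuoles, went both ways. Gbp2 was at 3.5, 3.1 and 3.42 in spleen and at 4.14, 4.01 and 4.17 in total tumour Treg. The groups did not overlap, and the rise was 0.77 ± 0.15 (SE; adjusted p = 0.00289). Gbp3 was at 2.94, 0.77 and 2.80 in spleen and at 4.17, 3.86 and 3.97 in total tumour Treg. Spleen array 2 was the low one: the rise was 1.83 with it, a 3.56-fold difference, and 1.13 without it, a 2.19-fold difference, and it passed the test both ways. Igtp (Irgm3) rose by 0.77, from 5.62 ± 0.12 to 6.39 ± 0.09 (SD, n = 3 each). Its call was lost when any 1 of the 6 arrays compared was left out. Ifi47 (Irg47) was lower by groups that did not overlap, at 4.60 ± 0.05 against 5.27 ± 0.15, with an adjusted p of 0.0671. Irgm1 was also lower on every array, by a difference of -0.17 that did not pass.

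Among the transcription factors, Irf1 rose and the ISGF3 subunits did not. Irf1, which drives interferon gamma targets, was at 5.61, 5.62 and 5.68 in spleen and at 6.66, 6.28 and 6.13 in total tumour Treg. The difference was 0.72 ± 0.17 (SE; adjusted p = 0.00768), and its other probe gave 0.58. The call of Irf1 was lost with normexp (0.42), with median scaling (0.65) and with slide as a block (0.50). Irf9, the DNA-binding subunit of ISGF3, was at 3.01, 3.01 and 3.2 in spleen and at 2.42, 2.29 and 2.47 in total tumour Treg. Every tumour array was below every spleen array, and the difference of -0.68 had an adjusted p of 0.0782. Stat2, its partner, differed by 0.07, with a 95% interval of -0.79 to 0.93. Irf7, the amplifier of type I interferon production, differed by 0.29, with an interval of -0.75 to 1.34.

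Isg15, the ubiquitin-like modifier, was at 4.32, 4.25 and 4.48 in spleen and at 4.90, 4.99 and 5.34 in total tumour Treg. The groups did not overlap and the rise was 0.73 ± 0.25 (SE; adjusted p = 0.0393), a 1.66-fold difference. Like that of Igtp, this call was lost when any 1 of the 6 arrays compared was left out, and also without IL10- array 3. The annotation of the files places the Isg15 probe on chromosome 17, whereas the RefSeq gene lies on chromosome 4, so the probe's target is uncertain. Usp18, which removes ISG15 from proteins, was at 2.35, 2.06 and 3.02 in spleen and at 1.48, 1.68 and 2.16 in total tumour Treg, and the groups overlapped. Herc6, the ligase that attaches ISG15 in mice, differed by 0.24. Neither passed the test.

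None of the 4 nucleic acid sensors was called. Ddx58 (RIG-I) was at 0.42, 1.18 and 0.76 in spleen and at 0.31, 0.14 and 0.55 in total tumour Treg, and its 4 probes gave differences from -0.59 to 0.46. Zbp1, the sensor of left-handed nucleic acids, was at 2.15, 2.21 and 2.28 in spleen and at 2.68, 2.54 and 3.27 in total tumour Treg. The groups of Zbp1 did not overlap, but the adjusted p was 0.256. Ifih1 (MDA5) and Dhx58 (LGP2) differed by -0.13 and 0.13.

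The ADP-ribosyltransferases Parp14 and Parp9, partners in interferon responses, also did not pass between total tumour and spleen Treg. Parp14 was at 3.52, 3.38 and 3.68 in spleen and at 3.11, 3.15 and 3.39 in total tumour Treg. Parp9 was at 1.09, 0.91 and 1.35 in spleen and at 1.23, 1.08 and 1.31 in total tumour Treg. Both overlapped between these groups, and both were lower in the VERT-X fractions, as described below.

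Of the remaining members, Ifi44 was at -2.97, -2.29 and -2.19 in spleen and at -1.76, -1.44 and -2.35 in total tumour Treg. Ifi35, a small interferon-induced protein, was at 4.18, 4.18 and 4.10 in spleen and at 4.0, 3.9 and 4.13 in total tumour Treg. The mitochondrial kinase Cmpk2 and the chaperone Rtp4 differed by 0.20 and 0.18. All 4 overlapped between the groups and none was called.

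**Figure D2:**
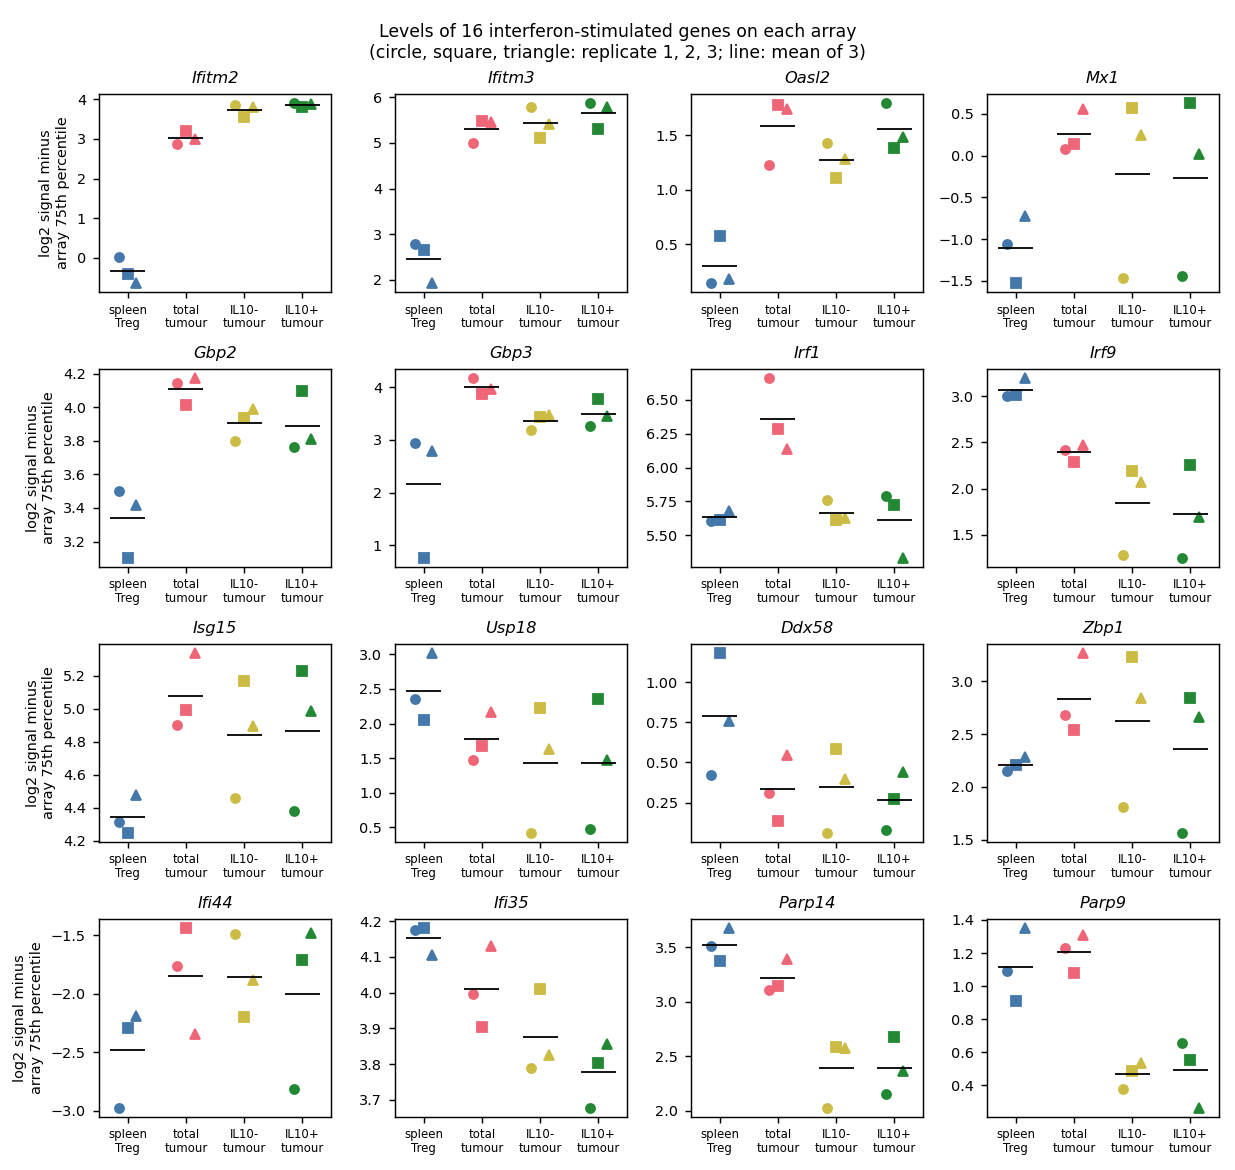
Level of 16 members on each of the 12 arrays, as log2 signal minus the 75th percentile of the array; symbols mark the replicate number and lines the mean of 3 arrays. Ifitm2 and Ifitm3 are lowest on all 3 spleen arrays, Irf1 is highest on the total tumour arrays, and Mx1, Usp18 and Zbp1 are lowest on array 1 in both VERT-X fractions.

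The 2 VERT-X fractions were each compared with the same spleen arrays, so these comparisons and the previous one share their controls and are not independent. Tissue, tumour bearing, reporter strain and Treg gate all changed together here and cannot be told apart. In IL10+ Treg, 8 members were called higher and 6 lower than in spleen, where 50.8% of all features were called (23.9% higher and 26.8% lower). In IL10- Treg, 7 were higher and 5 lower, against 48.9% of all features (24.3% higher and 24.6% lower). In both fractions the members' share of calls was below that of all features. Without spleen array 2 the counts were 8 and 5 for IL10+ Treg (44.5% of all features), and 7 and 5 for IL10- Treg (42.6%). All 5 membrane proteins were called higher in both fractions. Ifitm2 was higher by 4.19 in IL10+ and 4.07 in IL10- Treg, Ifitm3 by 3.19 and 2.98, Ifitm1 by 2.38 and 2.08, Ly6a by 1.86 and 1.58, and Bst2 by 1.07 and 1.06. Oasl2 and Gbp2 were also higher in both, by 1.26 and 0.97 and by 0.55 and 0.57. The calls of Bst2, Oasl2 and Gbp2 were lost in both fractions with normexp and also with median scaling. With median scaling Gbp2 was higher by only 0.08 in IL10+ and 0.12 in IL10- Treg. Normexp also lost the calls of Ly6a and Ifitm1 in IL10+ Treg. Gbp3 was called in IL10+ Treg (1.33; 0.63 without spleen array 2) and had an adjusted p of 0.0593 in IL10- Treg (1.2). Its call in IL10+ Treg was lost when any 1 of 8 arrays was left out, that is each total tumour array, each IL10+ array and IL10- arrays 2 and 3. The call of Bst2 in IL10- Treg was lost without IL10- array 2. Without both VERT-X arrays numbered 1, 56.5% of all features were called in IL10+ and 53% in IL10- Treg. Gbp3 then lost its call in IL10+ Treg (1.44, adjusted p = 0.0651 in limma), and the other members called in either fraction kept theirs.

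The members that were lower than in spleen differed in kind. Parp14 fell by 1.13 in both fractions, Irf9 fell by 1.34 in IL10+ and by 1.22 in IL10- Treg, and Ifi47 fell by 1.22 and by 0.95. Parp9 fell by 0.62 and by 0.65, and Ifih1 fell by 0.54 and by 0.64. Ifi35 was called in IL10+ Treg, at -0.37, and was at -0.28 with an adjusted p of 0.0906 in IL10- Treg. Irf1 did not differ from spleen by the test, at -0.02 and 0.03, with intervals from -0.40 to 0.42. The call of Ifi35 was lost without IL10+ array 1 or any spleen array, and that of Ifih1 in IL10+ Treg without IL10+ array 3 or spleen array 3. The fall of Parp14 rests on 1 of 3 probes. Its other probes gave -0.48 and 1.37 in IL10+ and -0.54 and 0.58 in IL10- Treg without passing, and with the mean of probes the differences were -0.077 and -0.36. The call of Ifih1 also rests on 1 probe: with the mean of its probes the difference was 0.68 in IL10- Treg. Its other probe was well above background on only 3 of 12 arrays. That probe gave 2.00 ± 0.90 (SE) in IL10- Treg without passing, against -0.64 ± 0.17 for the brightest probe. In the limma fit of single probes, dimmer probes of Ddx58 and Oas3, members not called here, passed. For Ddx58, 1 gave -1.06 in IL10+ and -1.16 in IL10- Treg (adjusted p = 0.00369 and 0.00243). Another went the other way in IL10+ Treg (0.92, adjusted p = 0.0447). For Oas3, the dimmer probe gave 1.56 in IL10- Treg (adjusted p = 0.0135). With slide as a block, 3 members were called in IL10+ (15.3% of all features) and 2 in IL10- Treg (7.7%). No slide held spleen arrays together with either VERT-X fraction, so these differences and the slide were separated only through the total tumour arrays.

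Between IL10+ and IL10- tumour Treg, no member differed by the test. None of the 38 was called in limma, none had an unadjusted p under 0.05, and all had an adjusted p of 1. Over all features 0.0514% were called. The median difference was -0.01, against -0.04 over all features, and 37 of 38 differences were smaller than 0.5 on the log2 scale. No member had groups that did not overlap, against 7.39% of all features. For 27 members the 95% interval lay within a 2-fold difference in either direction. For the other 11 it was wider, and a 2-fold difference could not be set aside at this spread in this unpaired fit. These were Mx1, Oas2, Oas3, Oasl1, Irf7, Usp18, Ifi44, Cmpk2, Zbp1, Ifitm1 and Gbp3. The intervals include spread that same-numbered arrays of both fractions shared, and no paired interval is given. On arrays 1, 2 and 3, Mx1 was at -1.47, 0.56 and 0.25 in IL10- and at -1.44, 0.63 and 0.02 in IL10+ Treg. Ifi44 did not run in parallel, at -1.49, -2.20 and -1.88 in IL10- and at -2.81, -1.72 and -1.48 in IL10+ Treg.

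Among the members called between total tumour and spleen Treg, Gbp3 had a wide interval between the fractions (-0.92 to 1.19), and the other 8 lay within a 2-fold difference. Ifitm2 differed by 0.13 between the fractions (95% interval -0.28 to 0.53), Ifitm3 by 0.21 (-0.41 to 0.83), Gbp2 by -0.02 (-0.36 to 0.32) and Irf1 by -0.05 (-0.44 to 0.33). The widest interval was that of Oas3, at -0.68 (-2.27 to 0.92), with values of -1.28, 0.75 and 0.55 in IL10- and of -2.23, 0.83 and -0.62 in IL10+ Treg. With normexp the members' median was -0.87, against -0.03 over all features, and the cause was not tested. No member was called under any alternative tried, including the fit of these 6 arrays with the replicate number as a block.

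VERT-X tumour Treg, taken as the mean of both fractions, were compared with total tumour Treg of FoxP3-EGFP mice. One member, Parp9, was called, and it was lower, where 1.12% of all features were called (0.302% higher and 0.822% lower). Parp9 was at 0.38, 0.49 and 0.54 in IL10- and at 0.66, 0.56 and 0.27 in IL10+ Treg, against 1.23, 1.08 and 1.31 in total tumour Treg. All 6 VERT-X arrays were below all 3 total tumour arrays, and the difference was -0.72 ± 0.14 (SE; adjusted p = 0.0456). The call held without IL10+ array 1 or spleen array 2, and was lost when any 1 of the other 10 arrays was left out. The members' median was -0.34, against -0.02 over all features, and 29 of 38 differences were negative.

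Several further members lay close to the threshold. Ifitm2 was higher in VERT-X Treg by 0.78 (adjusted p = 0.0521), with all 6 arrays above the total tumour arrays. Irf1 was lower by -0.72 (adjusted p = 0.0548), Parp14 by -0.82 (0.0555; -0.17 with the mean of its probes) and Ifit1 by -1.10 (0.0630), again with groups that did not overlap. In all, 10 members had groups that did not overlap, 1 higher and 9 lower, against 4.37% and 8.58% of all features (12.9% in all). When the VERT-X arrays numbered 1 were left out, 7 members were called, 2 higher and 5 lower. That share was near the 16.2% called over all features. Ifitm2 was then higher by 0.74, and Irf1, Parp14, Ifit1 and Ifih1 were lower by values of -0.79, -0.67, -0.96 and -0.52. Within slide 1, which held IL10+ array 1 and total tumour arrays 1 and 2, the members' median was -0.88.

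A second pattern lay within the VERT-X groups. On the arrays numbered 1 of both fractions, 29 of 38 members were at their lowest, against 29.0% of all features. This held for all 5 GTPases, all 3 genes of ISG15 conjugation, 9 of 11 antiviral effectors and 2 of 5 membrane proteins. Mx1 was at -1.47 and -1.44 on these arrays, and between 0.02 and 0.63 on the other 4 VERT-X arrays. Usp18 was at 0.42 and 0.47 against 1.48 to 2.36, and Irf7 was at 2.14 and 2.07 against 3.38 to 3.71.

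There were 8 members at least 1 log2 unit below the mean of the other arrays of their group in both fractions, namely Oas3, Mx1, Irf7, Oasl1, Cmpk2, Usp18, Mx2 and Zbp1. Over all features, 4.99% were that low in both, and this is a description with no test. Of the 9 members called in total tumour against spleen Treg, 5 were lowest on array 1 in both fractions, namely Ly6a (-0.83 and -1.0 against the other arrays), Isg15, Igtp, Gbp3 and Gbp2. The other 4 were not lower there. Ifitm3 was higher on array 1, by 0.52 in IL10- and 0.33 in IL10+ Treg, Oasl2 by 0.23 and 0.36, Irf1 by 0.14 and 0.26, and Ifitm2 by 0.17 and 0.06. These same 2 arrays had low Cd3e, as given above, and high Dcn, a fibroblast gene, at 6.71 and 6.87 against 5.30 to 5.94. The part of these other differences in the pattern was not tested.

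The pattern moved with the scaling of the arrays. The count of members lowest in both was 28 under quantile normalization and in the deposited value table, 5 with scaling to the array median and 12 with normexp background correction. Measured against each array's shift over all features, 30 of 38 members were lower on array 1 in both fractions under 4 of these settings, against 37.9% to 39% of all features. With normexp it was 12 of 38, against 33% of all features, a share near the background. IL10- array 1 shared its slide with the other IL10- arrays, whereas IL10+ array 1 was on another slide than IL10+ arrays 2 and 3. The median SD of the members was 0.48 in IL10- and 0.43 in IL10+ Treg, against 0.21 in total tumour and 0.23 in spleen Treg.

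**Figure D3:**
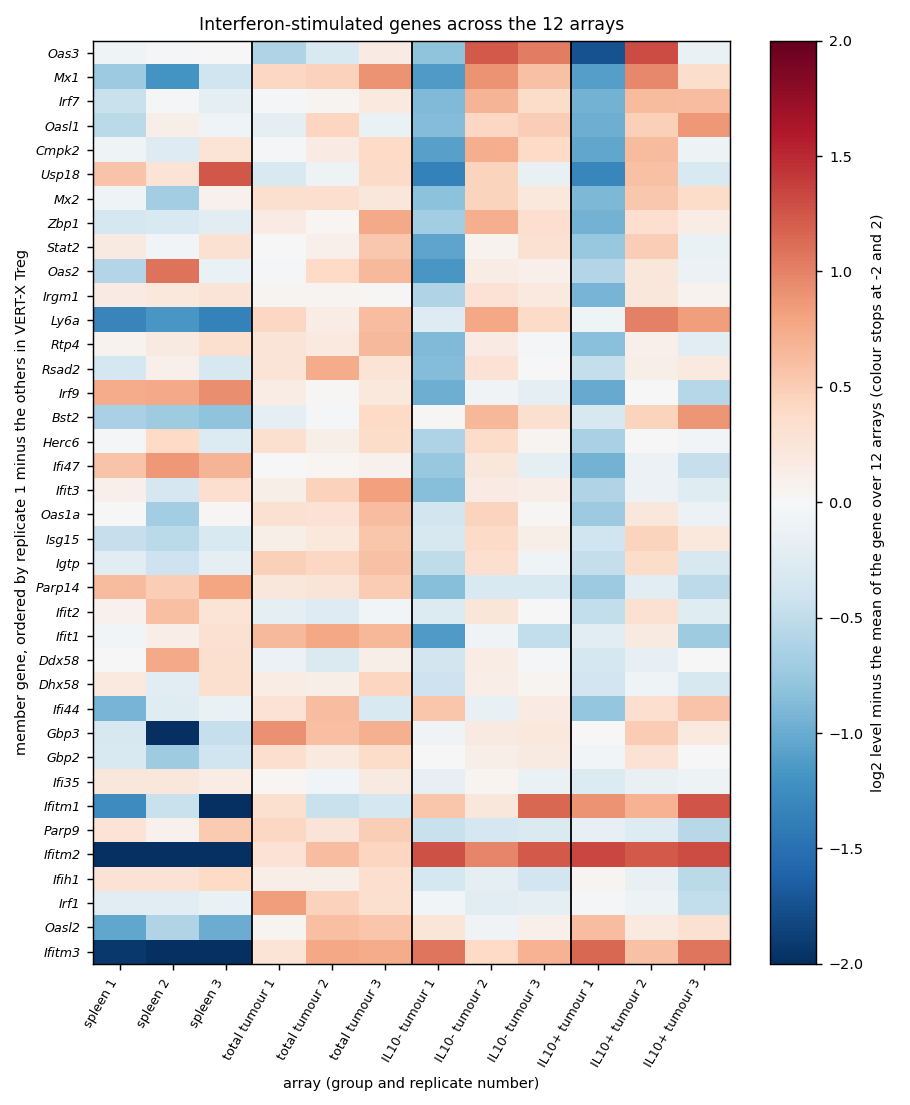
Level of the 38 members on each array, minus the mean of the gene over the 12 arrays, in log2 units; colour stops at -2 and 2, and genes are ordered by array 1 minus the others in the VERT-X fractions. Array 1 of both VERT-X fractions is low in the upper rows, such as Oas3, Mx1 and Irf7, whereas the spleen arrays are low in the rows of Ifitm2 and Ifitm3.

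Upstream of the members, interferon gamma and its receptor chains differed between total tumour and spleen Treg. Ifng was at 3.59, 3.16 and 2.77 in total tumour Treg and at 0.45, 1.84 and 0.12 in spleen Treg, a rise of 2.37 ± 0.61 (SE; adjusted p = 0.0116) with groups that did not overlap. Without spleen array 2 the rise was 2.89. In the VERT-X fractions Ifng ran from -0.15 to 1.78 and did not differ from spleen by the test. Of the 11 interferon genes on the array 4 passed the filter, namely Ifng, Ifnb1, Ifnab and Ifnz. Ifnz (limitin) was the other called one, higher by 0.96, and this call was lost without spleen array 2. Probes of Ifna2, Ifna4, Ifna5 and Ifna11 were well above background on none of the 12 arrays.

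Of 8 receptors and kinases, 1 was higher and 3 were lower in total tumour Treg. The ligand-binding chain Ifngr1 rose by 1.51, while its partner Ifngr2 fell by 1.29, the type I receptor chain Ifnar2 fell by 1.82 and the kinase Jak1 fell by 0.75. Ifnar1 differed by -0.11, Jak2 by 0.46 and Tyk2 by -0.25 without passing. Of 8 negative regulators, Socs3 was higher (0.61), and the SUMO ligase Pias1 (-0.84) and Irf2bp2 (-1.04) were lower. The call of Socs3 was lost without spleen array 2. These counts stand against 21.9% of all features called higher and 20.2% called lower.

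The sensing pathway had 2 of 11 genes higher and 4 lower. The cytosolic DNA sensor Cgas rose by 0.83 while its adaptor Sting1 fell by 0.65. The endosomal RNA sensor Tlr7 fell by 2.03, the kinase Ikbke by a difference of -1.89 and the ubiquitin ligase Trim25 by one of -0.72. Tlr3 was well above background on all 3 total tumour arrays and on no spleen array, and its call was lost without spleen array 2. Of 69 further interferon-stimulated genes outside the set, 18 were higher and 9 lower, with a median of 0.04, and without spleen array 2 these counts were 15 and 7. Together the 27 called are a share near the 42.2% called over all features. The largest rises were those of the chemokines Cxcl10 (3.95), Cxcl9 (3.69) and Ccl5 (2.37) and of the serpin Serpina3g (2.13). The largest falls were those of Ms4a4b (-2.61), Trim34a (-1.45), Parp11 (-1.32) and Slfn2 (-1.27), of which the call of Slfn2 was lost without spleen array 2.

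Markers of other cell types differed between tumour and spleen Treg alongside the members. Over all features, 21.9% were called higher in total tumour than in spleen Treg and 20.2% lower. Of 12 macrophage and monocyte markers, 10 were called higher in total tumour Treg and none lower. Their summed level, as log2, was 5.42 to 6.70 on spleen arrays, 8.48 to 9.41 in total tumour, 8.67 to 9.22 in IL10- and 8.98 to 9.74 in IL10+ Treg. Apoe and Lyz2 were well above background on all 12 arrays, and Trem2 on no spleen array. Of 8 fibroblast and endothelial markers, 6 were higher and 1 lower, with sums of 1.67 to 2.76 in spleen and 6.51 to 6.94 in total tumour Treg. Dcn was well above background on 1 of 3 spleen arrays and on all tumour arrays.

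All 7 B cell markers were lower in total tumour Treg, where 20.2% of all features were called lower. Their sums were 5.52 to 6.43 in spleen and 1.44 to 1.82 in total tumour. Of 5 markers of plasmacytoid dendritic cells, which make type I interferon, 4 were lower (3 without spleen array 2), with sums of 4.04 to 4.13 in spleen and 1.29 to 1.52 in total tumour Treg. Between IL10+ and IL10- Treg none of the 12 macrophage or 8 fibroblast and endothelial markers was called in limma, where 0.0514% of all features were. All 12 macrophage markers were nevertheless on the higher side in IL10+ Treg, by 0.19 to 0.60 (median 0.42). The groups of 2 of them did not overlap, against 7.39% of all features. Interferon-stimulated genes are not restricted to T cells, and the part of such cells in the members' differences was not tested.

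**Figure D4:**
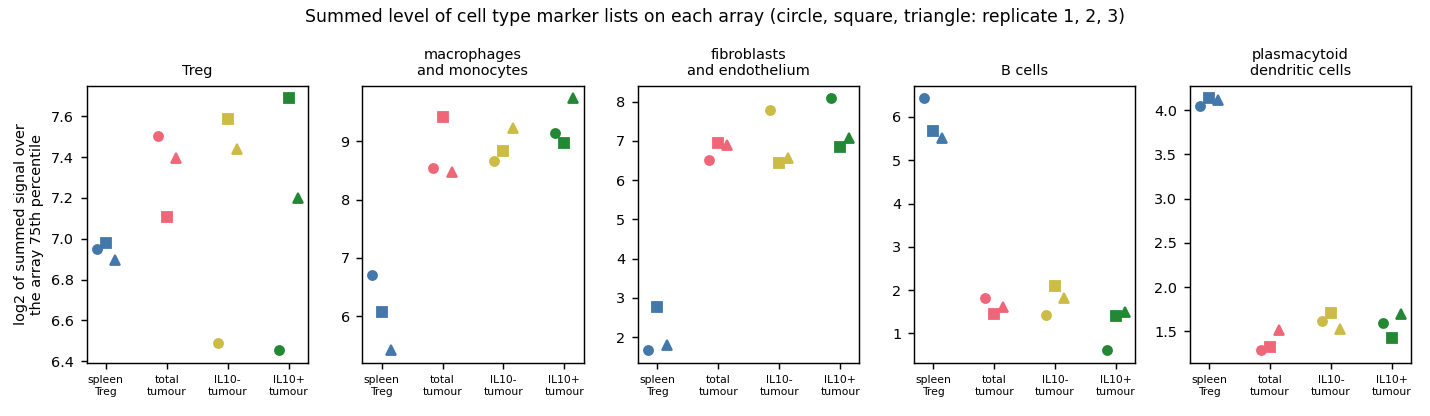
Summed level of 5 lists of cell type markers on each array, as log2 of the sum of signals over the 75th percentile of the array; symbols mark the replicate number. Macrophage and fibroblast sums are lowest on the spleen arrays, B cell and plasmacytoid dendritic cell sums are highest there, and Treg sums are lowest on array 1 of both VERT-X fractions (6.49 and 6.46).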

How the data were processed

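RNA of sorted Treg was measured on 12 arrays. The deposited scanner files hold the intensity of each spot from Agilent Feature Extraction 9.5.3.1, background-subtracted within the array and annotated on mm8, per the file headers. The deposited series value table holds values on a log10 scale, judged from their correlation with log10 of that intensity, and no source used here gives its normalization. Per the labels the cRNA carried biotin, whereas the file headers describe 1 channel.

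Outlier-flagged and control spots were left out, spots of a probe were averaged on the log2 scale, and each array's 75th percentile was subtracted. The probe with the highest mean stood for a gene, and features well above background on 3 or more arrays were kept. Older names in the files were matched to 5 members (Irf9, Cmpk2, Dhx58, Herc6 and Irgm1). All 12 arrays were fitted together in limma 3.58.1 (R 4.3.3) with empirical Bayes moderation, and p-values were adjusted by Benjamini-Hochberg within each of 5 comparisons. The fit was tested on simulated data.

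The members and lists were chosen with earlier results of these data known. The genes given array by array are the 2 smallest p-values per role group in total tumour against spleen Treg, and members called between VERT-X and total tumour Treg. All called members of the pathway lists could be named, and for further interferon-stimulated genes the 4 largest rises and falls. Cell type lists were to be named by their brightest members. Tlr3, Trem2, the Treg markers of arrays that stood apart and uncalled pathway genes were named after their values were seen. The number of arrays limits the precision. Alternatives were normexp correction, scaling to the median, quantile normalization, the value table, other probe filters, the mean of probes, slide and replicate number as blocks, fewer arrays, and trend with robust moderation. Promoter sequences are those of RefSeq on GRCm38.p6. Some genes of the pathway lists are not reported here.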

Additional observations from a re-analysis of the deposited data

How the results depend on the processing

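No member was called between IL10+ and IL10- Treg under any of the alternatives run. Shares of all features called stand in brackets. The count of 9 for total tumour against spleen (42.2%) became 3 with normexp (12%) and 5 with median scaling (24.9%). It became 17 with only the arrays compared (53%). Without the VERT-X arrays numbered 1, a setting chosen after seeing the data, it was 15 (52.1%). When 1 array was left out it ran from 7 to 13 (32.5% to 46%). The cause was not tested. For IL10+ against spleen, the count of 14 (50.8%) became 3 with slide as a block (15.3%) and 9 with only the arrays compared (39.6%). It ran from 12 to 15 over arrays left out (43.6% to 52.6%). Normexp called 2 higher and 10 lower (33.2%), and median scaling 4 and 6 (42.6%), in place of 8 and 6. For IL10- against spleen, the count of 12 (48.9%) became 5 with normexp (14.4%) and 2 with slide as a block (7.7%). It ran from 12 to 13 over arrays left out (41.3% to 53.1%). Median scaling called 4 higher and 6 lower (39.3%) in place of 7 and 5. For VERT-X against total tumour, the count was 1 (1.12%). It was 0 with normexp, median scaling, quantile normalization, the value table, no filter, either block and only the arrays compared (at most 0.482%). It was 5 with a filter on 6 arrays (2.4%) or robust moderation (2.21%), and 7 without the VERT-X arrays numbered 1 (16.2%). Over arrays left out it ran from 0 to 6 (0.0128% to 6.83%). Signs turned for Bst2 (-0.32), Gbp2 (-0.70) and Ifih1 (0.10) in IL10+ against spleen with normexp, and Ifih1 with the mean of probes in IL10- against spleen (0.68) and in VERT-X against total tumour (0.68). The dimmer Ifih1 probe in that mean was well above background on only 3 arrays. Parp9, uncalled in total tumour against spleen, turned to -0.045 with normexp and -0.016 without spleen array 2, the lowest with 1 array left out (highest 0.20). Same-numbered arrays of IL10- and IL10+ Treg had deviations that correlated at 0.41, 0.43 and -0.24 over all features and at 0.78, 0.80 and 0.35 over the members. As 1 value over all features was negative, and IL10- array 3 correlated best with IL10+ array 2 on both counts, the numbers were not taken as pairs. With the replicate block the counts were 12 for total tumour against spleen (41%) and 0 for IL10+ against IL10- (0.0193%). They were 13 and 12 for IL10+ and IL10- against spleen (49.9% and 48.2%), and 0 for VERT-X against total tumour (0.0707%). Median scaling shifted all features by -0.53, -0.45 and -0.41 in IL10+ against spleen, IL10- against spleen and VERT-X against total tumour. All members were well above background on all arrays; the part of signal level in the wider intervals was not tested.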
